A study of Bos taurus and Bubalus bubalis with 9 samples.

Results

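The circular RNAs (circRNAs) described here are all those that the deposited tables assign to NEB, the gene of nebulin. A circRNA forms when the end of an exon is joined backwards to the start of the same or an earlier exon, and it is recognised in sequencing by reads that cross this back-splice junction. Each row of the tables is 1 such junction, with a start, an end, a type and a value per library. Taking every row with the symbol NEB gave 94 distinct junctions out of 24221 in both tables, 37 of the 10701 rows in the buffalo table and 68 of the 18535 rows in the cattle table. NEB was chosen by the measured RPM of its junctions in muscle, where they stood high, so its levels and its leading junctions are given as a description and without a test.

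The libraries came from Xinyang buffalo, which the labels class as low in intramuscular fat, and Nanyang cattle, classed as high. According to the labels, the animals sequenced had been castrated at 6 months, were fattened from 18 months and were slaughtered at 30 months of age. The 9 libraries analysed here were 3 of buffalo longissimus dorsi muscle, 3 of cattle longissimus dorsi muscle and 3 of cattle back subcutaneous fat (adipose tissue). Muscle and fat came from the same 3 cattle, but the sources used here do not say which libraries share an animal. All of it is bulk tissue, in which fewer cells of a type and less RNA per cell cannot be told apart.

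Nebulin is a giant protein that runs along the actin thin filament of the skeletal muscle sarcomere, from the Z-disc towards the free end of the filament, and is known for its part in setting thin filament length. It is built from a long series of short actin-binding repeats, encoded by a correspondingly long series of short exons that are spliced differently between muscles and stages. Mutations of the human gene cause nemaline myopathy. The human gene also holds a block of exons repeated in near-identical copies. Where such copies exist, the copy to which a junction read belongs is uncertain, and how the caller placed such reads is not given in the sources used here.

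Values are RPM, the reads across a junction scaled to the size of the library. Each column could be divided without remainder by its smallest value above 0, which returned the number of junction reads and a library total of 35712276 to 65777231 reads. All junctions together had 4472 to 6122 reads per library in buffalo muscle, 15440 to 27141 in cattle muscle and 12042 to 21053 in cattle adipose tissue. Of the junctions found in a library, 33.7% to 61.9% rested on a single read. Reads of both species were aligned to the cattle genome UMD3.1, and the species sit in separate tables, so differences in RPM between buffalo and cattle were not tested, and species, alignment and table cannot be told apart in them. Marker genes were checked against the tissue labels. In buffalo muscle the markers of skeletal muscle summed to 93130 to 112779 FPKM (sequenced fragments scaled to transcript length and library size), with 6 of 9 given a value and MYH1 listed at 0, and those of adipocytes to 11.0 to 22.3 FPKM, with 7 of 8 given a value. For cattle only junction reads were at hand. The 8 adipocyte markers held 66 junction reads in cattle adipose tissue, 62 of them in PPARG, the regulator of fat cell differentiation, against 3 in cattle muscle, and the 9 muscle markers held 0 and 31.

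NEB circRNAs were abundant in the muscle of both species and all but missing from cattle adipose tissue. Buffalo muscle 1 to 3 had 670, 749 and 655 NEB junction reads, or 10.2, 11.8 and 10.9 RPM (mean 11.0 ± 0.788 SD, n = 3). Cattle muscle 1 to 3 had 607, 968 and 691 reads, or 16.1, 22.9 and 19.3 RPM (19.4 ± 3.42, n = 3). Each cattle muscle library lay above each buffalo muscle library in RPM. The same was true of the RPM of all junctions together, at 408 to 642 in cattle muscle and 74.5 to 96.1 in buffalo muscle. How many other hosts separate in this way was not computed, so the order is not particular to NEB. Cattle adipose 1 and 3 had 0 reads, which allows up to 0.0814 and 0.0772 RPM, and cattle adipose 2 had 1 read, or 0.0269 RPM. Intervals and limits of this kind cover counting error only. Pooled over libraries and scaled to their totals, 2266 reads in cattle muscle against 1 in cattle adipose tissue gave a ratio of 2209, with an exact 95% counting interval of 396 to 87299 that describes these libraries and is no test of the tissues. The coefficient of variation of summed NEB RPM over the 3 libraries was 7.20% in buffalo muscle and 17.6% in cattle muscle. Counting error alone gives 3.81% and 3.69%. Animals and library preparation were not measured apart, so these values do not show that the animals differed.

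**Figure D1:**
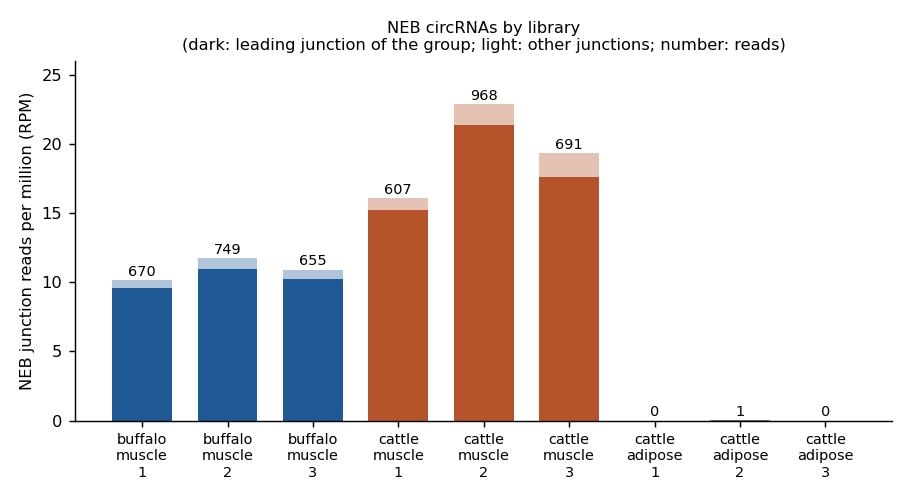
Summed RPM of all NEB junctions in each of the 9 libraries (vertical axis, from 0), with the leading junction of the group in the dark part of the bar, the other junctions in the light part, and the number of NEB reads above it. The buffalo muscle bars reach 10.2 to 11.8 RPM and the cattle muscle bars 16.1 to 22.9 RPM, and the adipose libraries hold 0, 1 and 0 reads.

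Among all circRNA host genes with a symbol, NEB held the first place in buffalo muscle by summed RPM, out of 2278 hosts. The next host was MYBPC1, the slow isoform of myosin-binding protein C, with 1.29 ± 0.277 RPM, and NEB exceeded it 8.47-fold. In cattle muscle NEB was second of 3882 hosts, behind UBE2D1, a ubiquitin-conjugating enzyme, with 24.6 ± 10.2 RPM. This order did not hold in every animal. UBE2D1 had 13.3 RPM in cattle muscle 1, below the 16.1 RPM of NEB, and 32.8 and 27.8 RPM in cattle muscle 2 and 3. NEB had more distinct junctions than any other host with a symbol in the muscle of each species. With hosts known only by an identifier included, it came second, with 37 junctions in buffalo and 68 in cattle, behind ENSBTAG00000026986 with 38 and 90, and its places by RPM were the same.

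Measured against all junction reads of its own library, NEB weighed more in buffalo. It took 12.7%, 12.2% and 14.6% of the junction reads in buffalo muscle 1 to 3 (13.2% ± 1.29, n = 3) and 3.93%, 3.57% and 3.16% in cattle muscle 1 to 3 (3.55% ± 0.388, n = 3). The groups did not overlap, and their order was the opposite of the order in RPM. This share is the NEB reads divided by the junction reads of all genes. NEB reads overlapped between the species, at 655 to 749 per library in buffalo muscle and 607 to 968 in cattle muscle. The junction reads of all genes did not overlap, at 4472 to 6122 and 15440 to 27141. The shares thus separated through the junction reads of all genes, and what lies behind the numbers of these was not tested.

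In both species 1 junction carried nearly all of the NEB signal, and it was not the same junction. In buffalo muscle the leading junction joined position 44660629 of chromosome 2 back to position 44653304, a span of 7326 bases on the plus strand (UMD3.1). It had 631, 697 and 613 reads, or 9.59, 10.9 and 10.2 RPM (10.3 ± 0.676), which was 94.2%, 93.1% and 93.6% of the NEB reads (93.6% ± 0.561). It was also the highest of all junctions in buffalo muscle. In cattle muscle the leading junction joined 44671994 back to 44660522, a span of 11473 bases. It had 575, 903 and 629 reads, or 15.2, 21.4 and 17.6 RPM (18.1 ± 3.1), which was 94.7%, 93.3% and 91.0% of the NEB reads (93.0% ± 1.87), and it stood second among all junctions of cattle muscle. The share of the leading junction thus lay between 91.0% and 94.7% in all 6 muscle libraries. The 1 read in cattle adipose tissue also belonged to the cattle leading junction.

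Neither leading junction was found in the other species. The buffalo junction had 0 of 2266 NEB reads in cattle muscle, which allows a share of up to 0.132%, and the cattle junction had 0 of 2074 NEB reads in buffalo muscle, which allows up to 0.145%. Both junctions are of the exon-intron type in the deposited tables, whose definition is not given in the sources used here. The type did not follow from the span, since the exon type was given to spans of up to 108926 bases, and it moved with the ends. From the same start at 44648280, the junction that ends at 44660629 is listed as exon-intron and the one that ends at 44671994 as exon. All 6 NEB junctions that start at 44660522 or end at 44660629 are listed as exon-intron or intron. Both leading junctions are assigned to the same 2 transcripts, ENSBTAT00000055345 and ENSBTAT00000061000, of gene ENSBTAG00000006907.

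The spans of the leading junctions lie end to end and share 108 bases, from 44660522 to 44660629. The last 108 bases of the buffalo span are the first 108 of the cattle span, and together both cover 18691 bases. The ends of this stretch were used differently in the 2 species. The start at 44660522 had 2108 reads over 2 junctions in cattle muscle, and in buffalo muscle 1 read, in a junction that ends at 44677024. The end at 44660629 had 1962 reads over 3 junctions in buffalo muscle, and 2 reads in 1 junction in cattle muscle. The outer sites were found on 1 side only. The start at 44653304 had 1941 reads in buffalo and 0 in cattle, and the end at 44671994 had 2111 reads over 3 junctions in cattle and 0 in buffalo. Apart from 1 read in buffalo and 2 in cattle, reads at the shared stretch thus ended there in buffalo and began there in cattle.

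**Figure D2:**
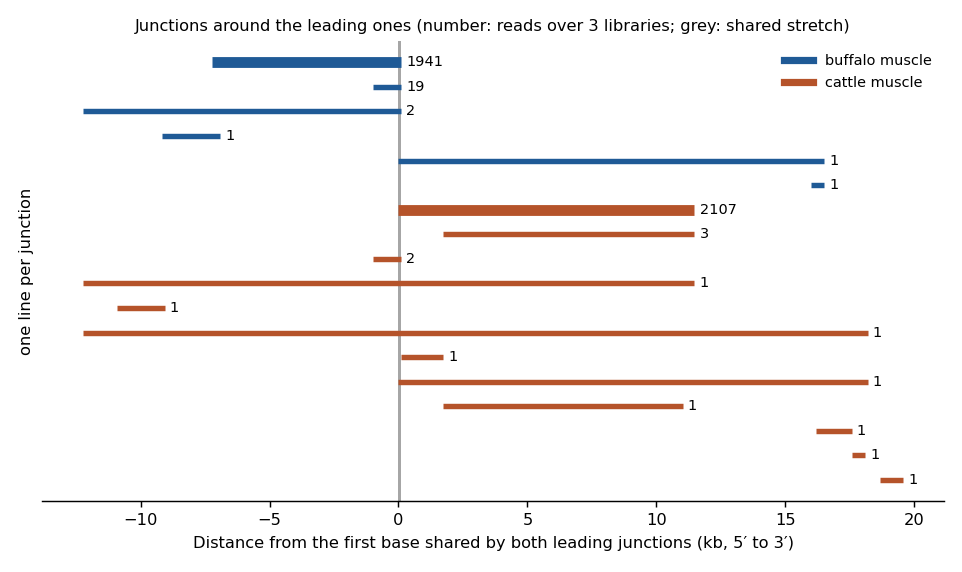
Each horizontal line is 1 NEB junction near the leading ones, drawn from its start to its end in kb from the first base that both leading spans share, with its reads summed over 3 libraries at its right end. The grey band is the stretch of 108 bases, at which the thick buffalo line (1941 reads) ends and the thick cattle line (2107 reads) begins.

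Other host genes served to show how common such a change of the leading junction is. Of 110 hosts, 4 of them without a symbol, with at least 20 junction reads in the muscle of each species, 76 (69.1%) had the same leading junction in both and 34 did not. Tied leading junctions, found in 5 hosts, were counted as the same where any of them was shared, which was so in 2, and without these 5 hosts the numbers were 74 of 105 (70.5%). Among these 34, NEB was the only host for which neither leading junction had a read in the other species. A further 56 hosts had a leading junction with over 50% of the reads in each species, and 55 of them had the same one. The exception was GFM2, a mitochondrial translation factor, named here after its values were seen. Its leading junctions held 60.0% and 80.4% of its reads in buffalo and cattle, and had 3 and 6 reads in the other species. The share of the leading junction was also ranked among hosts with several junctions. Among the 54 of these hosts with at least 5 junctions in each species, the leading junction held a median of 45.5% of reads in buffalo muscle and 39.7% in cattle muscle, and the share of NEB ranked first and second, with only SENP6, a SUMO protease, above it in cattle. Since NEB had been chosen for its leading junctions, these ranks are a description.

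**Figure D3:**
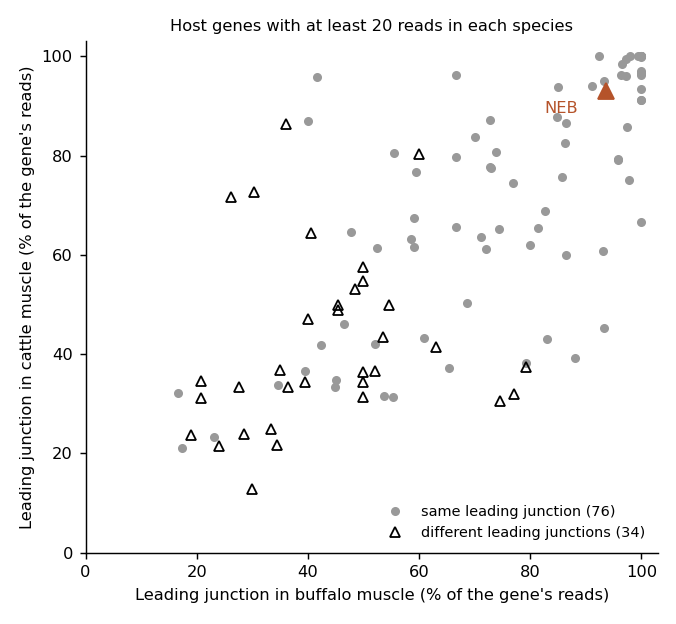
Each point is 1 of 110 host genes with at least 20 reads in the muscle of each species, placed by the share of its reads in its leading junction in buffalo (horizontal, %) and in cattle (vertical, %). Grey circles mark the 76 hosts whose leading junction is the same in both species and triangles the 34 where it differs, and NEB, the filled triangle at 93.6% and 93.0%, sits in the corner held otherwise by circles.

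Outside the leading junctions, NEB gave rise to many rare ones. Buffalo muscle 1 to 3 had 39, 52 and 42 NEB reads outside the leading junction, 133 in all, spread over 36 junctions. Cattle muscle 1 to 3 had 32, 65 and 62, 159 in all, spread over 67 junctions. The NEB junctions as a whole reach from 44552157 to 44754706, a stretch of 202550 bases. Their spans ran from 111 to 75578 bases in buffalo (median 4201) and from 111 to 108926 bases in cattle (median 2846). A single read in all of a species' libraries supported 17 of the 37 buffalo junctions (45.9%) and 33 of the 68 cattle junctions (48.5%), and only 6 and 3 junctions had 10 reads or more.

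The reads of these rare junctions were spread along the whole stretch that NEB junctions cover. With each junction placed by the middle of its span, the first 50 kb of the stretch held 37 of the buffalo reads and 25 of the cattle reads outside the leading junctions. The next 50 kb held 42 and 39, the stretch from 100 to 150 kb held 30 and 22, and the last part, from 150 kb on, held 24 and 73. The highest of these numbers in cattle was in the last part, where 29 of its junctions lay, and in buffalo in the part from 50 to 100 kb. Reads of single junctions and animals weigh heavily in such sums, and the species were not tested against each other.

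**Figure D4:**
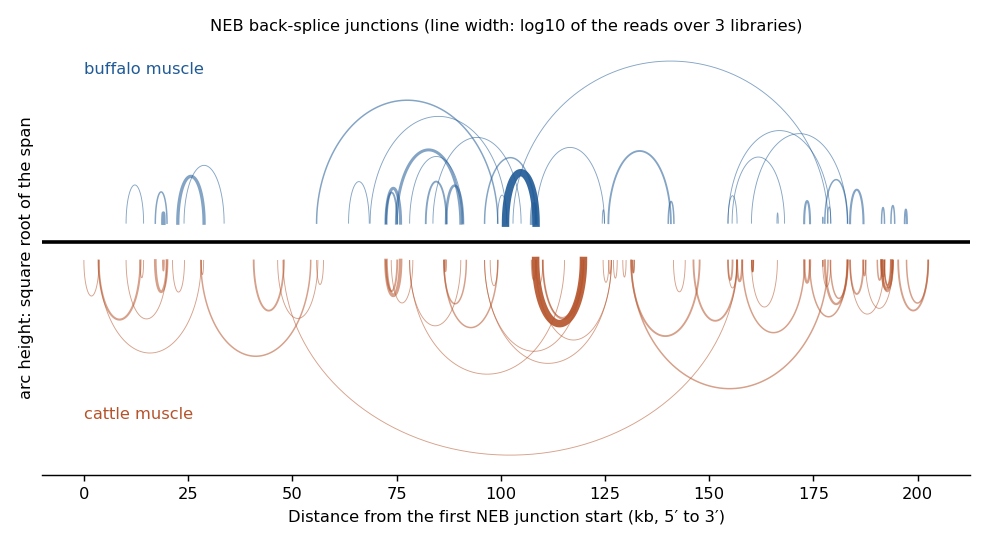
Every NEB junction is drawn as an arc from its start to its end along the stretch that NEB junctions cover (kb from the first NEB junction start, 5′ to 3′), buffalo muscle above the line and cattle muscle below it, with the line width following log10 of the reads over 3 libraries and the arc height the square root of the span. The thick arcs of the leading junctions meet at about the middle of this stretch, and thin arcs cover the rest, from 111 to 108926 bases in span.

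Junctions seen in every animal of a species, the leading one included, were few. In buffalo muscle 6 of the 37 junctions were found in all 3 animals (16.2%), 9 in 2 animals (24.3%) and 22 in 1 animal (59.5%). Over all genes the shares were 8.32%, 16.0% and 75.7%. In cattle muscle 5 of the 68 junctions were found in all 3 animals (7.35%), 7 in 2 (10.3%) and 56 in 1 (82.4%), against 12.2%, 17.4% and 70.4% over all genes. These shares were not tested.

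After the leading junction, the highest in buffalo muscle was an intron-type junction from 44659551 to 44660629, which shares its end with the leading one and had 2, 10 and 7 reads in buffalo muscle 1 to 3 and 0, 0 and 2 in cattle muscle 1 to 3. The exonic junction from 44571081 to 44571380, only 300 bases long, followed with 3, 10 and 4 reads in buffalo, against 1, 1 and 0 in cattle. Both had more reads in buffalo, and buffalo muscle 2 was the highest library in each. The exonic junctions 44574684 to 44580987, with 4, 10 and 2 reads, and 44627124 to 44642568, with 4, 5 and 2 reads, were found in every buffalo and had 0 reads in cattle. A junction from 44639047 to 44643095 had 7 reads, all in buffalo muscle 3. The tenth of the buffalo list, from 44677979 to 44692965, had 0, 1 and 2 reads in buffalo and 0 in cattle.

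The second junction of cattle muscle was exonic and ran from 44624630 to 44628127. It had 8, 5 and 10 reads in cattle muscle 1 to 3 and 4, 3 and 5 in buffalo muscle 1 to 3, and was the only NEB junction found in all 6 muscle libraries. In RPM it stood at 0.203 ± 0.0812 in cattle and 0.0637 ± 0.0183 in buffalo. The junction from 44569288 to 44572098 had 1, 4 and 3 reads in cattle and 2, 0 and 0 in buffalo. An exon-intron junction near the 3′ end of the stretch that NEB junctions cover, 44743510 to 44745858, had 0, 8 and 2 reads in cattle and none in buffalo. It shares its start with an intron-type junction ending at 44744212, which had 5 reads in cattle muscle 2, none in the other cattle, and 0, 1 and 1 in buffalo. Lower in the cattle list, the junction from 44555684 to 44565726 had 4 reads and the intron-type junction from 44638716 to 44639046 had 3, in each case all in cattle muscle 3. The longest span, 44599918 to 44708843, rested on 1 read in cattle muscle 3. The shortest, 44729380 to 44729490, had 1 read in each species.

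Exactly the same start and end were found in both species for 11 NEB junctions, which is 29.7% of the 37 buffalo junctions and 16.2% of the 68 cattle junctions. Over all genes, 2231 junctions were shared, 47.1% of those in buffalo muscle and 18.6% of those in cattle muscle. In reads the shared NEB junctions made up 67 in buffalo and 58 in cattle, which was 3.23% and 2.56% of all NEB reads, since the leading junctions are not among them, and 50.4% and 36.5% of the reads outside the leading junctions. Over all genes, NEB included, the shared junctions held 60.0% and 50.7% of the junction reads. For a limit of at least 2 reads in each species, no share over all genes was computed. With this limit, 9 shared NEB junctions were left of 20 and 35, or 45.0% and 25.7%. Beside those given above, these were 44624630 to 44627327 with 3 reads in each species, 44724942 to 44726350 with 4 reads in buffalo and 5 in cattle, 44729899 to 44735351 with 2 and 5, and 44735954 to 44739173 with 4 and 3.

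**Figure D5:**
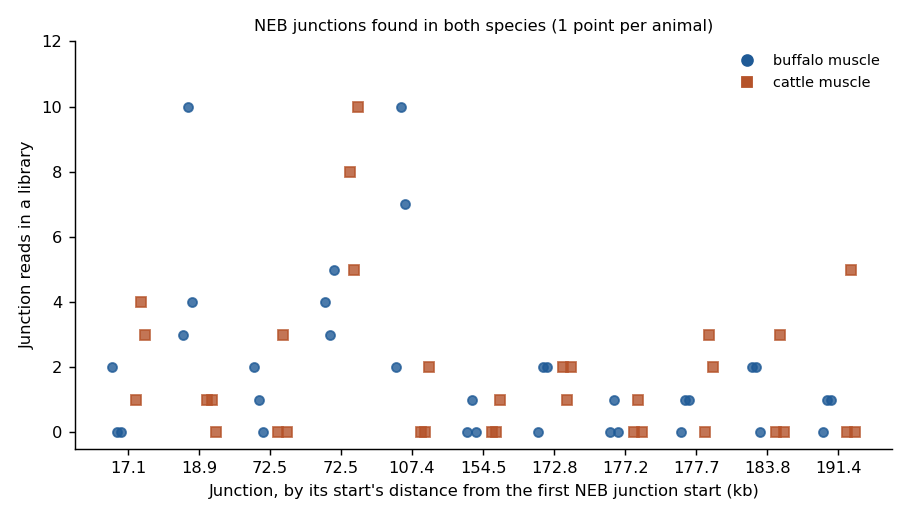
Reads per library (vertical axis) of the 11 NEB junctions found at the same coordinates in both species, ordered by the distance of their start from the first NEB junction start (kb, not to scale), with 1 point per animal. No point lies above 10 reads, and the junction with 4, 3 and 5 reads in buffalo and 8, 5 and 10 in cattle is the only one without a point at 0.

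Single starts and ends were also compared. The NEB junctions used 69 starts, 35 of them in buffalo and 51 in cattle, and 17 in both, which is 48.6% and 33.3%. They used 67 ends, 30 in buffalo and 53 in cattle, and 16 in both, which is 53.3% and 30.2%. Shares of starts and ends over all genes were not computed, so whether those of NEB are high or low is not known. Sites were also combined in several ways, with 19 starts and 18 ends used by at least 2 junctions, up to 3 junctions for a start and up to 4 for an end.

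By type, most rare junctions were exonic, as in other genes. In buffalo 32 junctions were exonic, 3 exon-intron and 2 intronic, and in cattle 43, 12 and 13. Exonic junctions thus made up 86.5% of NEB junctions in buffalo and 63.2% in cattle, against 88.8% and 87.3% over all genes, and intronic ones 5.41% and 19.1%, against 0.971% and 2.57%. In reads the picture was the reverse, because of the leading junctions. Exon-intron junctions held 93.7% of NEB reads in buffalo and 94.3% in cattle, against 19.0% and 12.6% over all genes. The values over all genes include NEB itself, which held 13.2% of the junction reads in buffalo muscle and 3.55% in cattle muscle. Of the reads outside the leading junctions, exonic junctions held 109 of 133 in buffalo and 104 of 159 in cattle, intronic ones 21 and 26, and exon-intron ones 3 and 29.

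Some intron-type junctions lay directly against the start or end of another junction, and these were picked after their positions were seen. The intronic junction from 44708844 to 44710079, with 0, 2 and 2 reads in cattle muscle 1 to 3, begins 1 base after the end at 44708843 and stops 1 base before the start at 44710080. Another, from 44660630 to 44662239, with 1 read in cattle, begins 1 base after the stretch of 108 bases that the leading junctions share. The one ending at 44639046 stops 1 base before the start at 44639047.

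With introns left aside, 27 pairs of a start and the next end within 400 bases could be read off the NEB junctions as short stretches that a start opens and an end closes. Of these, 26 (96.3%) had a length that is a multiple of 3, the length of a codon. The same count was not made for other hosts, so it is a description without a background. The length of 105 bases occurred 10 times, 93 bases 4 times, and 108 and 312 bases 3 times each, and the only length that was no multiple of 3 was 107 bases. The stretch shared by the leading junctions is 1 of those of 108 bases, and the buffalo leading junction begins with 1 of those of 312 bases. No annotation of the files' genome build was at hand, so these stretches were not matched to exons.

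The number of distinct NEB junctions grows with the number of NEB reads, so it was also compared at an equal number of these. The totals of the libraries and their junction reads of all genes still differed, as given above. Counted as they stand, buffalo muscle 1 to 3 had 21, 18 and 19 junctions and cattle muscle 1 to 3 had 22, 33 and 30. In a draw of 607 NEB reads per library, the expected numbers were 20.1, 16.0 and 18.3 in buffalo (18.1 ± 2.04) and 22.0, 25.4 and 28.4 in cattle (25.3 ± 3.20). Each cattle library lay above each buffalo library. The difference of the means, buffalo minus cattle, was -7.14 junctions. An exact permutation test of 3 against 3 libraries cannot go below p = 0.1, so nothing is read from a test here. Species, alignment and table cannot be told apart in this difference either, and it is given as a description of the NEB reads by which the gene was chosen. In a draw of 100 reads the buffalo mean was 6.13 ± 0.127 and the cattle mean 7.10 ± 1.53, and the libraries overlapped, with 5.61 junctions in cattle muscle 1.

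Both NEB transcripts also occur in the deposited mRNA table of buffalo. ENSBTAT00000055345 and ENSBTAT00000061000 were listed at 0 FPKM in all 3 buffalo muscle libraries, while NEB circRNAs led the junction reads of the same libraries. An exact 0 of this kind may be a failed estimate. MYH1, the gene of a fast myosin heavy chain, was listed at 0 in the same way, as were 1041 of the 19917 transcripts of the table (5.23%). Of 122 hosts with at least 20 junction reads in buffalo muscle, 120 had a paired transcript in the table, and NEB was the only 1 whose transcripts were all at 0. Of the NEB junctions, 20 in buffalo and 33 in cattle were assigned to both transcripts, and the other 17 and 35, with 31 and 83 reads, to 1 transcript only.

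The comparison of cattle muscle with cattle adipose tissue was run over all junctions with limma on log2(RPM + 1). Of 1917 junctions with at least 2 reads in at least 3 of the 6 libraries, 62 passed an adjusted p of 0.05 (3.23%), and 59 of them (3.08%) were higher in muscle. Only 2 of the 68 NEB junctions had enough reads to be tested. The leading junction was 1 of those called, with a difference of 4.23 ± 0.11 (SE) on the log2(RPM + 1) scale, which understates the change of low values, and nothing is read from the call because the junction was chosen for this contrast. The junction from 44624630 to 44628127 differed by 0.26 ± 0.06, with 0 reads in adipose tissue. It met the read minimum through the muscle libraries alone, so nothing is read from its call either, which was not made here but was made with edgeR, with DESeq2, with a pseudocount of 0.1 and without cattle muscle 2. Summed by host gene, 70 of 1837 hosts were called (3.81%), 54 of them higher in muscle (2.94%). With 1 library left out these became 17 to 64 hosts in all, the fewest without cattle adipose 3, where 0.708% were higher in muscle. The difference of NEB was 4.33 ± 0.12.

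Other genes of the sarcomere and its surroundings gave a wider view of which muscle genes make circRNAs. A list of 69 such genes without NEB, covering the thin filament, the Z-disc, the thick filament and their partners, and also RYR1, ATP2A1 and DMD of the sarcoplasmic reticulum and the sarcolemma, had 29 genes with junction reads in buffalo muscle (645 reads in all), 39 in cattle muscle (2731 reads) and 13 in cattle adipose tissue (69 reads). NEB alone thus had more reads than the whole list in buffalo muscle and fewer in cattle muscle. Of the 13 genes with enough reads in cattle for the test by limma, 3 were higher in muscle (2.94% over all hosts) and 0 lower. With a pseudocount of 0.1 the 3 became 8 (5.23% over all hosts), and without cattle muscle 1 they became 7 (3.1% over all hosts). The median difference of the 13 was 0.33 on the log2 scale, against 0.000129 over all hosts. A gene could reach the read minimum through the muscle libraries alone, so this count and median are a description. The 3 genes were MYBPC1 (3.38 ± 0.12 SE), LMO7, a scaffold protein that binds actin (3.00 ± 0.13, adjusted p = 3.75e-05 by limma), and MYPN, the Z-disc protein myopalladin (1.50 ± 0.11). In adipose tissue MYBPC1 had 0 reads and MYPN 0, 2 and 0, so both reached the read minimum through muscle alone and nothing is read from their calls. LMO7, with 2, 3 and 8 reads, reached it in adipose tissue as well. The list was drawn up with earlier results of these data known, so the call of LMO7 is a description too.

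The 5 genes of this list with the highest RPM in cattle muscle were MYBPC1 with 9.50 ± 1.91 RPM (n = 3) from 1094 reads, LMO7 with 8.02 ± 1.68 from 940, MYPN with 1.91 ± 0.408 from 222, MYOZ2, the Z-disc protein myozenin 2, with 0.672 ± 0.40 from 77, and PALLD, the actin-bundling protein palladin, with 0.468 ± 0.275 from 55. Against adipose tissue MYOZ2 differed by 0.71 ± 0.16 (SE) and PALLD by 0.51 ± 0.13 on the log2(RPM + 1) scale. With 0, 0 and 0 and with 1, 1 and 0 reads there, they too reached the read minimum through muscle alone. Nothing is read from their calls, which were not made here but were made with a pseudocount of 0.1, with edgeR, with DESeq2 and without cattle muscle 1, and for MYOZ2 also with a minimum of 5 reads. The nearest relatives of nebulin gave few circRNAs. NEBL, its counterpart in heart, had 1 read in cattle muscle and 0 in buffalo muscle, NRAP, a protein of myofibril assembly, had 9 and 2, and LASP1, the smallest of the family, had 0 in both. TTN, the gene of titin, the other giant protein of the sarcomere, had 0 reads under its symbol in all 9 libraries.

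The host genes whose pattern over the 9 libraries was most like that of NEB were found by the Euclidean distance between log2(summed RPM + 0.1), centred per gene, among 1215 hosts with at least 20 reads. The median distance was 10.8. The nearest were MYBPC1 (3.67) and LMO7 (4.93), followed by MLIP (5.84), which encodes a muscle protein that interacts with lamin, BOLL (6.28), an RNA-binding protein known from germ cells, and MYL1 (6.48), a fast myosin light chain. All 5 had a higher mean RPM in cattle than in buffalo muscle and at most a few reads in adipose tissue, apart from LMO7. Higher RPM in cattle muscle is not particular to these genes, since all junctions together had it too, as given above. The share of all hosts with it was not computed. The buffalo values of the 5 genes were 1.29 ± 0.277, 1.28 ± 0.249, 0.378 ± 0.134, 0.398 ± 0.114 and 0.198 ± 0.103 RPM in this order. In cattle muscle MLIP had 2.48 ± 1.35, BOLL 0.806 ± 0.455 and MYL1 5.55 ± 0.729 RPM. Cattle adipose tissue held 13 reads of LMO7, 1 of MLIP and 0 of the other 3 genes. In buffalo and cattle muscle NEB stood at 11.0 and 19.4 RPM, MYBPC1 at 1.29 and 9.50 and MYL1 at 0.198 and 5.55. Distances of this kind weigh a few libraries with values near 0, and they are a description over 9 libraries.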

How the data were processed

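Per the labels and the methods of the study, RNA was sequenced from TruSeq libraries on an Illumina HiSeq, trimmed with Trim Galore, aligned to UMD3.1 with STAR and assembled with Cufflinks 2.2.1. For circRNAs the authors deposited 1 table per species, in RPM for each junction, and the circRNA caller is not given in the sources used here. For mRNAs of buffalo the authors deposited FPKM values from Cuffdiff, 1 for each transcript. The 3 buffalo tables hold 9 columns of buffalo adipose tissue, a tissue whose samples are not among the labels, and these were not used.

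Members were all rows with the symbol NEB. Members, lists and named genes were chosen with earlier results of these data known. Named were the 10 NEB junctions with the highest mean RPM per group, those found in both species with at least 2 reads in each, the longest and the shortest span, the 5 sarcomere genes with the highest RPM in cattle muscle and the 5 hosts most like NEB. All 9 libraries were used, in the groups that their labels give.

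Whole reads were recovered from RPM by dividing by the smallest value of a column (100% of values whole within 0.01 reads). They rest on that step being 1 read. Which reads the totals include is not given in the sources used here. Cattle muscle and adipose tissue were compared with limma 3.58.1 in R 4.3.3 on log2(RPM + 1), with Benjamini-Hochberg adjustment over all features and a threshold of 0.05. On simulated data this test recovered fewer of the changed junctions than edgeR, DESeq2 or a pseudocount of 0.1, so a junction that was not called may still differ. edgeR 4.0.16 and DESeq2 1.42.0 on recovered reads were alternatives, besides a pseudocount of 0.1, no filter, a minimum of 5 reads, the replicate block and each library left out. Junction numbers were rarefied without replacement (scipy 1.17.1); an exact permutation test was run on them, and nothing is read from it because 3 against 3 libraries cannot pass the threshold. Shares and limits of 0 reads use 3 counts, and the ratio of pooled reads uses an exact binomial interval of 95%. p-values measure the spread between 3 animals per group. The library kit selects polyadenylated RNA and does not mark strand, which bears on how many circRNAs are captured and on the strand of a junction. Transcripts were named where the circRNA tables or the study's supplementary lists pair them with a symbol (6825 of 19917).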

Additional observations from a re-analysis of the deposited data

How the results depend on the processing

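Of 95 alternative values, 0 reversed and 22 moved. The other 73 kept their direction and their side of the threshold where there is a test, and otherwise stayed within the limits set for values and counts, but their size could still change. Many of the 73 could hardly have come out otherwise, so their number is no measure of robustness. A mean over 3 libraries cannot move by as much as its SD, the limit set here, when 1 is left out. The rarefied difference cannot pass the threshold in any setting. The log2 difference of summed NEB RPM between cattle muscle and adipose tissue, 4.33 as reported, was 7.48 with a pseudocount of 0.1, 10.7 and 10.6 in edgeR with and without TMM factors and 10.97 in DESeq2, and ranged from 4.21 to 4.45 with 1 library left out. Its calls are not read as support, since NEB was chosen for its level in muscle. The rarefied difference, -7.14 as reported, was -0.97 in a draw of 100 reads. The number of NEB junctions called there rose from 1 to 2 with a pseudocount of 0.1, with edgeR with or without TMM factors and with DESeq2, and lay between 1 and 2 with 1 library left out (2 without cattle muscle 2). Over all genes, 62 junctions called became 123 with the pseudocount of 0.1, 36 without a filter, 163 and 113 in edgeR with and without TMM factors and 112 in DESeq2, and 24 to 70 with 1 library left out (24 without cattle adipose 3, 26 without cattle adipose 1, 36 without cattle muscle 3 and 41 without cattle adipose 2). The sarcomere genes called went from 3 to 8 with the pseudocount of 0.1, to 9 and 8 in edgeR and to 8 in DESeq2, and lay between 3 and 7 with 1 library left out (7 without cattle muscle 1). The share of all hosts called higher in muscle moved with them, from 2.94% to 5.23% with the pseudocount of 0.1, to 6.70% and 4.95% in edgeR and to 5.55% in DESeq2. All hosts called, 70 as reported, were 64, 39 and 26 without cattle muscle 1, 2 and 3, and 22, 45 and 17 without cattle adipose 1, 2 and 3. Summed over exonic NEB junctions alone, RPM fell to 0.575 in buffalo muscle and 0.901 in cattle muscle, because the leading junctions are left out. Hosts with the same leading junction numbered 16 of 24 (66.7%) with at least 50 reads, an alternative chosen after seeing the data, 76 of 110 with ends matched within 5 bp and 74 of 105 without tied hosts, both also chosen after seeing the data. With 1 library left out, the share of the leading junction ranged from 93.3% to 93.9% in buffalo and from 92.2% to 94.0% in cattle, summed NEB RPM from 10.5 to 11.3 and from 17.7 to 21.1, the NEB share of junction reads from 12.4% to 13.6% and from 3.36% to 3.75%, and the rarefied difference from -8.78 to -5.58 junctions. In adipose tissue NEB RPM ranged from 0 to 0.0134.

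The replicate numbers were not shown to mark shared animals. The deviations of same-numbered cattle muscle and adipose libraries correlated at r = 0.238, 0.169 and -0.0156 across 1917 junctions, which are not independent, and cattle muscle 3 did not correlate best with its own number. With the replicate number as a block, 86 junctions and 69 hosts were called, and 1 NEB junction as before. For the rarefied junctions the blocked difference was -7.14, from which no p is read.

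Depth limits the rare junctions most, since 1 read is worth 0.0152 to 0.0280 RPM and about as many junctions rest on 1 read as on more. A junction missing from an animal was not detected at this depth, which does not show that it is absent.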

Other observations

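The ends at 44735351 and 44746245 were each used by 4 NEB junctions, more than any other site. The first had 3 reads over 2 junctions in buffalo muscle and 9 reads over 3 junctions in cattle muscle. The second had 7 reads over 4 junctions in cattle muscle and 0 in buffalo muscle.

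Within the stretch covered by NEB junctions, the tables also list 2 junctions on the minus strand as intergenic, both in buffalo. The first, from 44657667 to 44662477, covers the stretch of 108 bases shared by the leading junctions and had 1 read. The other, from 44679238 to 44680083, had 2 reads.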
